A study of Mus musculus with 4 samples.

Results

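Oxidative phosphorylation subunit genes were followed across 4 arrays of mouse embryonic fibroblasts (MEFs). The genes were taken by symbol: nuclear genes beginning with Ndufa, Ndufb, Ndufc, Ndufs or Ndufv (complex I), Sdha to Sdhd (complex II), Uqcr (complex III), Cox4 to Cox8 (complex IV) and Atp5 (complex V), without Ndufaf assembly factors and pseudogenes. This gave 82 of the 19938 genes that had a probe set annotated to 1 gene: 36 of complex I, 4 of complex II, 8 of complex III, 17 of complex IV and 17 of complex V. Each gene was read by its brightest probe set, and 17 of the 82 had more than 1.

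Oxidative phosphorylation takes place in the inner mitochondrial membrane. Complexes I and II pass electrons from NADH and succinate to ubiquinone, complex III passes them on to cytochrome c, and complex IV to oxygen. The proton gradient that complexes I, III and IV build up drives complex V, the ATP synthase. Most subunits are encoded in the nucleus, and several complex IV subunits exist as isoforms used in muscle, lung or testis.

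MEFs are connective tissue cells cultured from embryos. Cells were wild type or labelled as knockout for NFAT5 (TonEBP), a transcription factor that switches on osmolyte genes in hypertonic medium, and grew unsynchronised for 20 hours. The medium was either isotonic or raised to 450 mosmol/kg by added NaCl. A pool of 4 samples per genotype and medium went onto 1 Affymetrix Mouse Gene 1.0 ST array, so there were 4 arrays. The sources used here do not give the deleted part of Nfat5, how many isolates the cells came from, or the isotonic osmolality. There was 1 array per group, so no test was made, and every difference below is a description of these pools on the log2 scale.

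The array medians were 4.87 to 4.91. Correlations between arrays over all probe sets were lowest for knockout-labelled hypertonic cells against the wild-type arrays, 0.980 and 0.979. Nfat5 read 7.74 and 8.19 on the wild-type isotonic and hypertonic arrays and 8.03 and 8.24 on the knockout-labelled ones, so it did not read lower under the knockout label, and the cells are called knockout-labelled throughout. Of 12 fibroblast markers, 10 were above the dim limit on every array, and Dcn and Lum were below it on every array. The dim limit is the median of the 1-gene probe sets of an array, 5.38 to 5.44. The endothelial and adipocyte lists had no marker above it on any array, and the haematopoietic list had at most 1 of 5 (Cd68), with Ptprc below it throughout. Of 8 muscle markers 2 or 3 were above it, with Myod1, Myog, Des and Ckm below it on every array. Of 6 epithelial markers 2 or 3 were above it, Krt18 on every array and Epcam on none. Of the 4 neural markers measured 2 were above it on every array, Nes and Tubb3, with Sox10 below it.

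The 82 genes split sharply by detection. On all 4 arrays 74 read above the dim limit. The other 8 were the isoforms Cox4i2, Cox6a2, Cox6b2, Cox7a1, Cox7b2, Cox8b, Cox8c and Ndufa4l2, known mainly from muscle, lung, testis or hypoxic cells. Cox6a2, the muscle form of subunit 6a, passed the limit only on the knockout-labelled hypertonic array, at 5.42. Each of the other 7 read below the limit on all arrays, from 3.04 for Cox7b2 to 5.22 for Cox4i2, the hypoxia-inducible form of subunit 4. Medians and counts below use the 74 or 75 genes above the limit on at least 1 array compared.

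In wild-type cells the subunit genes differed little between media. None of 74 differed by 1.5-fold, whereas 4.12% of all 10134 genes measured were higher and 3.3% lower by that much. The median over the subunit genes was 0.05, with quartiles of -0.04 and 0.11, and the median of all genes was -0.02. The complexes lay close together, with medians of 0.05 for complex I, 0.09 for II, -0.01 for III, 0.10 for IV and 0.04 for V. The complex III median was positive after quantile, cyclic loess and median centring. The highest members were Ndufb3 (0.40) and Ndufv3 (0.36), accessory subunits of complex I, and Cox6a1 (0.33) and Cox6c (0.26) of complex IV. The second Cox6c probe set gave 0.12. The lowest were Sdhd (-0.29), a membrane anchor of complex II, and Atp5g1 (-0.25), Atp5d (-0.23) and Atp5g3 (-0.23) of the ATP synthase. Probe sets of the same gene differed with an SD of 0.18 per probe set over 576 genes in this comparison. The same SD was 0.22 for the difference between media in knockout-labelled cells. It was 0.21 and 0.26 between genotypes in isotonic and hypertonic medium, and 0.28 for the difference between the genotypes' responses.

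In knockout-labelled cells most subunit genes read lower in hypertonic medium, and complex I had the lowest median. Over 75 genes the median was -0.22, and 64 were below 0, against a median of -0.09 and 60.1% below 0 for all 10277 genes. The complex medians were -0.27 for I, -0.08 for II, -0.21 for III, -0.03 for IV and -0.10 for V. The shift was shallow: 5 genes were at least 1.5-fold lower and none was higher, against 12.0% lower and 4.28% higher among all genes. Those 5 were Atp5g2, Sdhc, Ndufv2, Ndufb5 and Ndufb8, and only Atp5g2 of them was 2-fold lower (3.08% of all genes). Under quantile normalization, cyclic loess or centring 2 of the 5 stayed past 1.5-fold, Atp5g2 and Sdhc, while Ndufv2, Ndufb5 and Ndufb8 lay between -0.54 and -0.50. Quantile normalization moved the median of all genes from -0.09 to 0.01 and left complex I at -0.19 and III at -0.13. Over 8 alternative settings complex I stayed between -0.30 and -0.18 and III between -0.21 and -0.12. Complex II became positive after cyclic loess and centring, complex IV after these, quantile normalization and without the dim limit, and V stayed between -0.13 and -0.01. The knockout-labelled hypertonic array also had the lowest summed fibroblast marker signal, 13.90 against 14.29 to 14.68 on the log2 scale, although Fn1 and Thy1 of that list read slightly higher there than on the knockout-labelled isotonic array. The summed epithelial signal was highest on it, 8.21 against 7.67 to 7.99, as was the muscle signal, 8.25 against 7.84 to 8.01. Not every member of these lists was highest there. Krt18 read 6.94 on this array and 6.03 to 6.23 on the others, while Cdh1 read 5.21, below the wild-type 5.88 and 6.05. Tnnt2 read 6.05 against 4.76 to 5.21. Acta1 (6.01) was below the 6.33 of wild-type hypertonic cells and Actc1 (5.84) below the 5.87 of wild-type isotonic cells. The neural signal was 8.13 on the knockout-labelled hypertonic array, above the 7.60 of the knockout-labelled isotonic array and below the wild-type 8.98 and 8.63. The part of these marker differences in the subunit values was not tested. In these pools fewer cells of a type and less RNA per cell cannot be told apart.

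**Figure D1:**
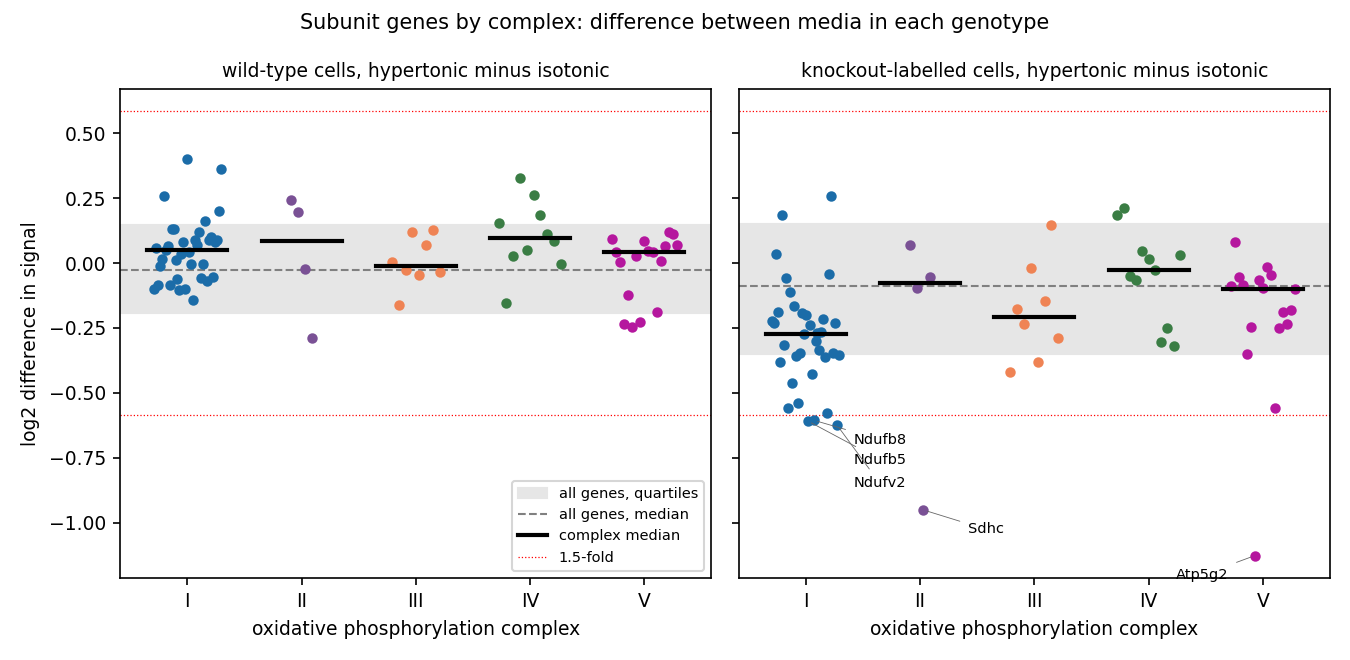
Log2 difference in signal between hypertonic and isotonic medium for subunit genes above the dim limit, by complex, in wild-type (left) and knockout-labelled cells (right). Points are genes, black bars complex medians, the grey band and dashed line the quartiles and median of all genes, and dotted lines 1.5-fold; complex I sits at a median of 0.05 on the left and -0.27 on the right, and genes past 1.5-fold are named.

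Complex I oxidises NADH in a peripheral arm and pumps protons in a membrane arm. Of its 35 measured genes 32 were below 0 in the knockout-labelled response and 30 were below the median of all genes. In the list of the 20 lowest subunit genes 14 belonged to complex I, which made up 35 of the 75 genes ranked. Across arrays, 24 of the 35 had their lowest signal on the knockout-labelled hypertonic array, 68.6%, against 37.8% of all genes. On the knockout-labelled isotonic array 19 of the 35 had their highest signal, 54.3%, against 28.7% of all genes. Both arrays enter the knockout-labelled response.

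The lower readings ran through every structural module of complex I. The N module binds NADH, the Q module reduces ubiquinone, and the ND1, ND2, ND4 and ND5 modules make up the membrane arm. Median differences in the knockout-labelled response were -0.25 over 10 genes of the N module, -0.35 over 5 of the Q module, -0.27 over 4 of ND1, -0.27 over 5 of ND2, -0.29 over 4 of ND4 and -0.36 over 6 of ND5. In wild-type cells the same medians lay between -0.05 and 0.11. The 6 measured core subunits, those shared with the bacterial enzyme, had a median of -0.25. Ndufb1 and Ndufb4 were not analysed here.

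Ndufv2, a core iron-sulfur subunit of the NADH-oxidising module, had the lowest complex I difference. It read 9.41 and 9.61 on the wild-type isotonic and hypertonic arrays and 9.39 and 8.77 on the knockout-labelled ones. The difference was -0.62 in knockout-labelled and 0.20 in wild-type cells, and the array that stands apart is the knockout-labelled hypertonic one. Its partner Ndufv1, which carries the flavin, read 9.62, 9.71, 9.43 and 9.20 in the same order, a knockout-labelled difference of -0.23.

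Ndufb5 and Ndufb8 are accessory subunits of the membrane arm. Ndufb5 read 9.47 and 9.51 in wild-type and 9.56 and 8.95 in knockout-labelled cells, a difference of -0.61 in the latter. Ndufb8 read 8.27 and 8.36, then 8.54 and 7.94, also a difference of -0.61. Both were nearly level between media in wild-type cells (0.04 and 0.09). Just inside 1.5-fold were Ndufs5 (-0.58), Ndufa5 (-0.56) and Ndufab1 (-0.54), the last encoding the mitochondrial acyl carrier protein, which complex I holds as a subunit. The second Ndufab1 probe set gave -0.58.

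The 3 complex I genes above 0 in the knockout-labelled response were Ndufs7 (0.26), Ndufa2 (0.19) and Ndufa11 (0.03). Ndufs7, a core subunit next to the ubiquinone site, read 9.31 and 9.26 in wild-type and 9.42 and 9.68 in knockout-labelled cells. It was highest on the array where most complex I genes were lowest. Ndufa2, a small N-module subunit, was higher in hypertonic medium in both genotypes, 0.26 and 0.19.

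**Figure D2:**
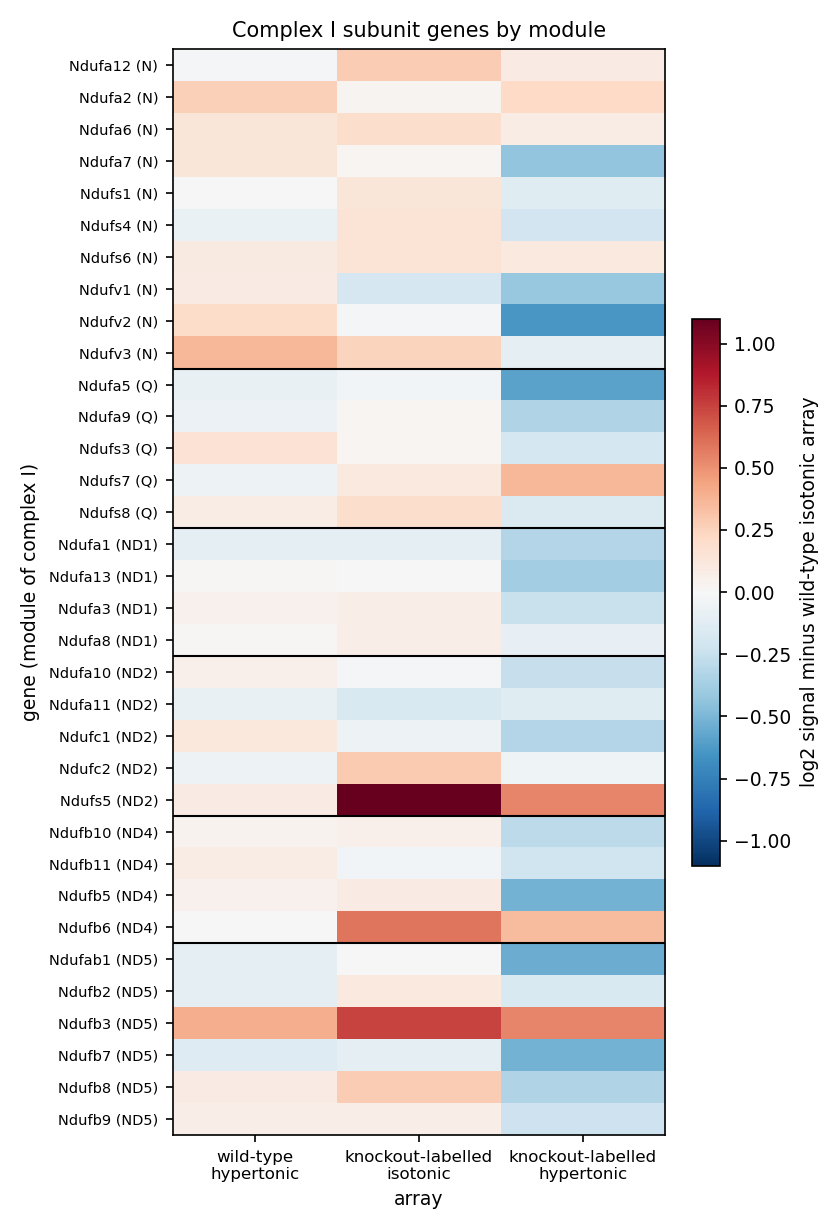
Log2 signal of 34 complex I genes on 3 arrays, each relative to the wild-type isotonic array, with genes ordered by structural module (colour bar: red higher, blue lower). Ndufa4 and Ndufa4l2, which have no module here, are not drawn; the knockout-labelled hypertonic column is mostly blue, with Ndufs5, Ndufb3 and Ndufb6 red on both knockout-labelled arrays.

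Ndufa4 was named as a complex I gene and is now counted as a complex IV subunit. It read 11.29 and 11.36 in wild-type and 11.67 and 11.61 in knockout-labelled cells, with a knockout-labelled response of -0.06. That lay nearer to the complex IV median than to that of complex I. With Ndufa4 moved and the tissue isoforms left out, the knockout-labelled medians were -0.29 for complex I and -0.05 for complex IV.

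Complex II, succinate dehydrogenase, has 4 subunits, and they did not move together. Sdhc, a membrane anchor, read 8.90 and 8.88 in wild-type and 9.27 and 8.32 in knockout-labelled cells, so its hypertonic signal was 0.517 times the isotonic one in the latter (-0.95). Its anchor partner Sdhd read 9.42, 9.13, 9.15 and 9.10, highest in wild-type isotonic cells and nearly level on the other arrays. Sdha, the flavoprotein, read 10.33, 10.57, 10.17 and 10.24, and Sdhb, the iron-sulfur protein, read 8.66, 8.85, 9.15 and 9.05. The knockout-labelled differences of these 3 genes lay between -0.10 and 0.07.

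Complex III carries electrons from ubiquinol to cytochrome c. In the knockout-labelled response 7 of its 8 genes were below 0, none past 1.5-fold. The lowest were Uqcr10 (-0.42), a small subunit, Uqcrc2 (-0.38), a core protein, and Uqcrq (-0.29), which helps bind ubiquinone. Uqcrc1, the partner core protein of Uqcrc2, differed by -0.02. Uqcrh, the hinge protein beside cytochrome c1, was above 0 in both genotypes (0.13 in wild-type and 0.15 in knockout-labelled cells). Uqcrfs1, the Rieske iron-sulfur protein, differed by 0.07 and -0.14.

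Complex IV, cytochrome c oxidase, had the knockout-labelled median nearest to 0 on the deposited scale, and it turned positive under the 4 settings given above. Of the 10 genes above the dim limit on all arrays 6 were below 0 and 4 above, and 3 were below the median of all genes. Their median was -0.04. Cox6a2 (0.05) counted as the 11th only through its knockout-labelled hypertonic reading. Cox5a (0.21) and Cox4i1 (0.19), which build the early core of the enzyme with the mitochondrially encoded subunits, were highest. Cox4i1 read 9.93 and 10.08 in wild-type and 10.05 and 10.24 in knockout-labelled cells, higher in hypertonic medium in both. Cox5a read 9.24 and 9.08, then 8.96 and 9.17, so its direction differed between genotypes. Cox8a (0.03) and Cox6b1 (0.02) were also above 0 in the knockout-labelled response.

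The lowest complex IV genes in the knockout-labelled response were Cox7b (-0.32), Cox7a2 (-0.30) and Cox7a2l (-0.25). Cox7a2l encodes a relative of Cox7a2 that links complexes III and IV into supercomplexes. It read 8.86 and 8.97 in wild-type and 8.79 and 8.54 in knockout-labelled cells, and its second probe set differed by -0.05, so its probe sets disagreed in size. Cox7b also had 2 probe sets, with differences of -0.32 and -0.20. Cox7c had probe sets only under more than 1 gene symbol and was not analysed.

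Complex V, the ATP synthase, couples the F1 head, which makes ATP, to a membrane ring of c subunits through stalks. Of its 17 genes 16 were below 0 in the knockout-labelled response, most by little, and 11 were below the median of all genes. The complex median, -0.10, lay next to the -0.09 of all genes. On the knockout-labelled isotonic array 10 of the 17 had their highest signal (58.8%, against 28.7% of all genes). On the knockout-labelled hypertonic array 5 had their lowest (29.4%, against 37.8%). The 5 genes of the F1 head had a median of -0.08. The catalytic beta subunit gene Atp5b read 12.32 and 12.37 in wild-type and 12.49 and 12.57 in knockout-labelled cells, and was the 1 complex V gene above 0 there (0.08). Atp5a1, its alpha partner, differed by -0.09 and Atp5e, the epsilon subunit, by -0.35. The 9 genes of the stalks and membrane part had a median of -0.18, from -0.56 for Atp5k, subunit e, to -0.01 for Atp5j, coupling factor 6.

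The c-ring genes spanned -1.13 to -0.07 in the knockout-labelled response. Atp5g1, Atp5g2 and Atp5g3 encode the same mature c subunit with different import sequences. Atp5g2 read 11.06 and 11.08 in wild-type and 10.98 and 9.85 in knockout-labelled cells. Its knockout-labelled hypertonic signal was 0.458 times the isotonic one (-1.13), and 0.427 times the wild-type hypertonic one (-1.23). Atp5g3 read 11.04, 10.81, 10.92 and 10.85, and Atp5g1 read 8.89, 8.64, 8.84 and 8.59. Atp5g1 was lower in hypertonic medium by the same amount in both genotypes (-0.25 and -0.25), and Atp5g3 differed by -0.23 in wild-type and -0.07 in knockout-labelled cells. So only Atp5g2 among these 3 had a knockout-labelled hypertonic reading apart from its other arrays.

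All 3 Atp5g2 probe sets showed the low reading. Their knockout-labelled differences were -1.07, -1.14 and -1.13, and their wild-type differences 0.16, 0.04 and 0.03. Of these probe sets 2 had the same knockout-labelled hypertonic value, 9.75, so they may share probes and are not independent readings. Whether any of them reads a near-identical copy of the gene was not tested.

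**Figure D3:**
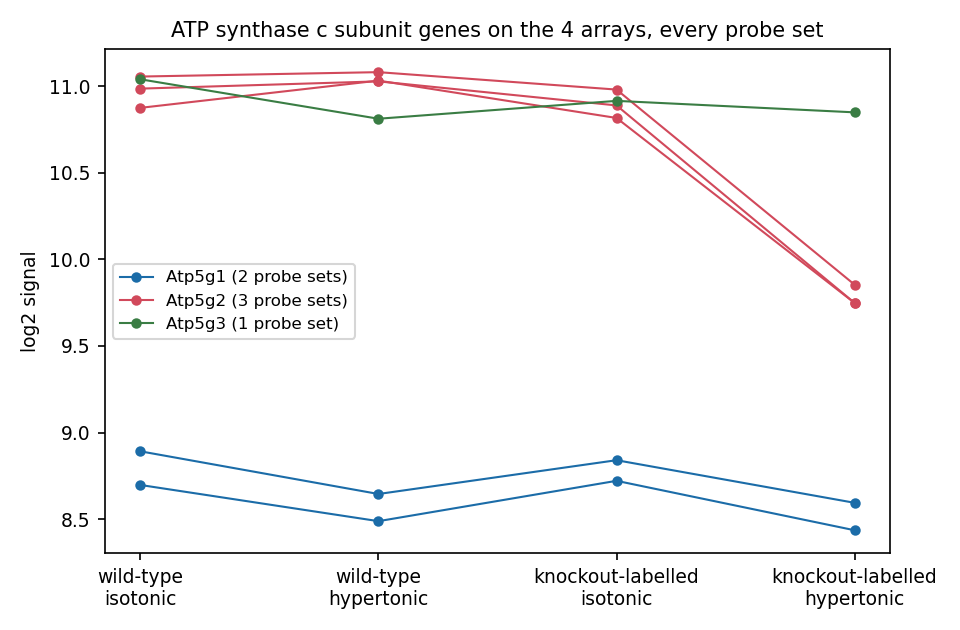
Log2 signal of every probe set of Atp5g1, Atp5g2 and Atp5g3 on the 4 arrays, with lines joining the values of a probe set. The 3 Atp5g2 probe sets lie at 10.82 or above on 3 arrays and at 9.75 to 9.85 on the knockout-labelled hypertonic array, while the lines of Atp5g1 and Atp5g3 show no such step.

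The promoters of the c-ring genes are shown because these genes share a product but not their readings. Each is the 250 bases before the RefSeq start in GRCm38.p6, written 5′ to 3′ on the gene's strand, with matches to the searched motifs in capitals. Atp5g1 lies at chr11:96075632-96075881, Atp5g2 at chr15:102671048-102671297 and Atp5g3 at chr2:73911327-73911576, all on the minus strand.
Atp5g1: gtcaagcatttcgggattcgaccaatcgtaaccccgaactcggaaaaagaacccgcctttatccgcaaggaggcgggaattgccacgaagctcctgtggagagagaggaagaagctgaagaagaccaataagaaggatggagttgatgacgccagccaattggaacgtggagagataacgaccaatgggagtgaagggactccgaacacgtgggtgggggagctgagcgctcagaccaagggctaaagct
Atp5g2: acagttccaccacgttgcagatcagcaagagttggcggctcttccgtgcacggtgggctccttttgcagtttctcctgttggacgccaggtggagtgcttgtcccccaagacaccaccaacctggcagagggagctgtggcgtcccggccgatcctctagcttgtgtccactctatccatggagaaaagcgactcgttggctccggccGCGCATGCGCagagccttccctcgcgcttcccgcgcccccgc
Atp5g3: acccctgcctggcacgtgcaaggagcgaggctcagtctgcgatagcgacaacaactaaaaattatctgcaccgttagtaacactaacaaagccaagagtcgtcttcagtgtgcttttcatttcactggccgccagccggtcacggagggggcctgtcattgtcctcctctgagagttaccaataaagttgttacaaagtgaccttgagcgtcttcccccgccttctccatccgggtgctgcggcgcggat
The match in Atp5g2 is the palindromic NRF1 motif, 42 to 33 bases before the start. The windows of Atp5g1 and Atp5g3 held none of the letters searched, which says nothing of the factors.

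NRF1, GABPA and YY1 are known regulators of nuclear genes for mitochondrial proteins, so their motifs were counted in promoter windows of 300 bases (250 before and 50 after the start), on both strands. RefSeq windows were at hand for 67 of the 82 genes, 72 windows in all, and for 32851 windows overall. The full NRF1 motif, the letters in capitals above, was in 5 of the 72 (6.94%) and in 0.971% of all windows. These were the windows of Atp5g2, Atp5k, Cox6a1, Ndufa11 and Uqcrc1. Its 8-letter core GCATGCGC, which the longer motif contains, was in 13.9% against 2.71%. The ETS/GABPA letters CCGGAAG were in 23.6% against 8.86%, and the YY1 letters AAGATGGC in 13.9% against 2.75%.

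Genes with a motif had both low and high readings. The windows with YY1 letters were 7 of 34 in complex I, 3 of 18 in complex V and none in the other complexes. They included Ndufb8 (-0.61) and also Ndufs7 (0.26). Genes with the NRF1 motif ran from Atp5g2 (-1.13) and Atp5k (-0.56) through Cox6a1 (-0.06) and Uqcrc1 (-0.02) to Ndufa11 (0.03) in the knockout-labelled response. The NFAT core letters TGGAAA were in 13.9% of the members' windows and in 21.4% of all windows, and not in that of Atp5g2.

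In isotonic medium the knockout-labelled cells had slightly higher subunit readings than wild-type cells. The median over 74 genes was 0.09, with 24 below 0 (32.4%), against 0.03 and 45.2% below 0 for all 10191 genes. After quantile normalization the median was 0.04. The complex medians were close, from 0.07 for complexes I and IV to 0.12 for V, and that of IV was -0.04 without the dim limit. At least 1.5-fold higher were 3 of the 74 genes, a share no larger than the 4.92% of all genes. None was 1.5-fold lower (3.87% of all genes). Ndufb6 was inside 1.5-fold after quantile normalization, cyclic loess and centring (0.53 to 0.56), and Ndufb3 was too dim to count at the 75th percentile limit, so each of these settings left 2. Only Ndufs5 was 2-fold higher (1.59% of all genes). All 3 encode small membrane-arm subunits of complex I.

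Ndufs5, one of these, read 7.60 and 7.69 on the wild-type arrays and 8.72 and 8.14 on the knockout-labelled ones. The isotonic difference was 1.11. A further probe set was annotated to Ndufs5 together with a pseudogene and was left out. Ndufb3 read 6.33 and 6.73 in wild-type and 7.07 and 6.87 in knockout-labelled cells (0.74 in isotonic medium). Ndufb6 read 9.91 on both wild-type arrays and 10.50 and 10.26 on the knockout-labelled ones (0.59). In all 3 genes both knockout-labelled readings lay above both wild-type ones. Below them came Sdhb (0.49), and then Ndufa4, Atp5mpl and Sdhc between 0.37 and 0.38. The lowest were Cox5a (-0.28), Sdhd (-0.27), Ndufv1 (-0.19) and Uqcrq (-0.19).

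In hypertonic medium complex I stood lower in the knockout-labelled cells while complex V was level. The comparisons share arrays with the responses above, so these values are not separate support. The median over 75 genes was -0.07, and the complex medians were -0.27 for I, -0.18 for II, -0.01 for III, -0.07 for IV and 0.01 for V. The last became -0.02 when the probe sets of a gene were averaged. The median of all 10374 genes was -0.01. At least 1.5-fold lower were Atp5g2 and Ndufv2 (-0.84), where 15.1% of all genes were lower, and none was 1.5-fold higher, where 8.72% were. Atp5g2 was also 2-fold lower (6.43% of all genes). Next came Ndufa7 (-0.57), Ndufb5 (-0.56), Uqcr10 (-0.56) and Sdhc (-0.56). The highest were Ndufs5 (0.44), Ndufs7 (0.42), Ndufb6 (0.35), Atp5d (0.33) and Uqcrh (0.33), leaving out Cox6a2 (0.33), which passed the dim limit on the knockout-labelled array alone.

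**Figure D4:**
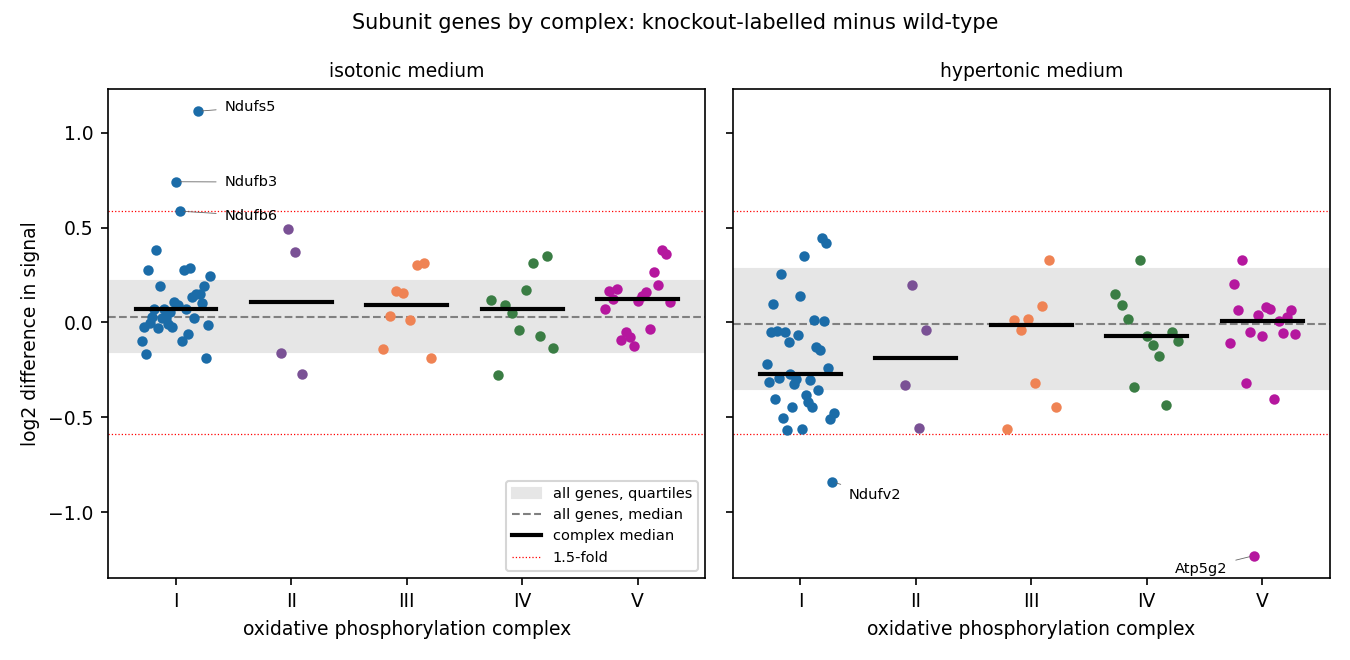
Log2 difference between knockout-labelled and wild-type cells for subunit genes above the dim limit, by complex, in isotonic (left) and hypertonic medium (right), drawn as points with complex medians in black and all genes in grey. Ndufs5, Ndufb3 and Ndufb6 lie above the 1.5-fold line in isotonic medium, and Atp5g2 (-1.23) and Ndufv2 (-0.84) below it in hypertonic medium.

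The responses of the genotypes were then subtracted, knockout-labelled minus wild-type. The median was -0.26 over 75 genes, against -0.06 for all 10542 genes, and 33 of 35 complex I genes were below 0, against 55.5% of all genes. At least 1.5-fold negative were 9 subunit genes, where 15.4% of all genes were, and none was positive, where 7.76% were. They were Atp5g2 (-1.15), Sdhc (-0.93), Ndufv2 (-0.83), Ndufv3 (-0.72), Ndufb8 (-0.69), Ndufs5 (-0.67), Ndufb5 (-0.65), Ndufb3 (-0.60) and Ndufa7 (-0.59). The last 2 of these were inside 1.5-fold after quantile normalization, cyclic loess and centring. At the 75th percentile dim limit these 2 and Ndufv3 were too dim to count. Ndufv3 read 7.17 and 7.54 in wild-type and 7.42 and 7.06 in knockout-labelled cells, so it moved in opposite directions. At 2-fold there was 1, Atp5g2, against 5.53% of all genes. The highest were Cox5a (0.37), Ndufs7 (0.31) and Sdhd (0.23), and the complex IV median, -0.08, was 0.03 without the dim limit and -0.18 over the 10 genes above the limit on all arrays. Across the 75 genes the responses had a Pearson r of 0.09 and a Spearman rho of 0.13; they share no array, and the genes of a response share its 2 arrays. Brighter members tended to have higher knockout-labelled responses: mean signal over the 4 arrays and that response had a Spearman rho of 0.41 (r 0.26) over the 75 genes, 0.22 over complex I and 0.69 over the 17 genes of complex V, against -0.05 over all genes. The mean signal includes the arrays of the response, and its part in the differences between complexes was not tested.

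Lists of other mitochondrial genes were set beside the subunit genes. Assembly factors, which build the complexes but are not part of them, had a knockout-labelled median of -0.36 over 38 genes, and 0.04 in wild-type cells. In the knockout-labelled response 9 were at least 1.5-fold lower and none higher, against 12.0% and 4.28% of all genes. Bcs1l, which inserts the Rieske protein into complex III, read 7.23 and 7.27 in wild-type and 7.35 and 5.93 in knockout-labelled cells (-1.41). Cox15, needed for the haem of complex IV, differed by -0.84 there, while Cox11 (0.50) and Ndufaf1 (0.46) were higher. In wild-type cells Ecsit (-0.94) and Ndufaf4 (-0.63), both complex I assembly factors, were lowest.

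Mitochondrial ribosomal protein genes had medians of -0.08 in wild-type and -0.22 in knockout-labelled cells over 77 genes, with Mrpl23 (-1.32) and Mrps17 (-1.04) lowest in the latter. The tricarboxylic acid cycle and pyruvate list, 18 genes, had medians of 0.01 and -0.19, with Suclg2, a succinyl-CoA ligase subunit (-1.42), lowest. The list of carriers and partners, 23 genes, had medians of -0.18 and -0.08, the latter positive after centring, with Etfb, an electron transfer flavoprotein subunit (-1.14), lowest in knockout-labelled cells. Regulators of mitochondrial biogenesis went the other way, with medians of -0.15 and 0.09 over 14 genes. Esrra, a nuclear receptor of mitochondrial genes, read 6.52 and 6.10 in wild-type and 6.50 and 7.06 in knockout-labelled cells. Tfb1m, which modifies mitochondrial ribosomal RNA, differed by -1.46 in the latter, to a signal below the dim limit.

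Proteasome subunit genes had a knockout-labelled median of -0.28 over 37 genes, next to -0.27 for complex I. Cytosolic ribosomal protein genes had -0.06 over 56 genes, which turned positive after cyclic loess and after centring. In wild-type cells these lists were at -0.08 and -0.07, where complex I was at 0.05. The subtracted responses had medians of -0.29 for complex I, -0.18 for the proteasome and -0.02 for the cytosolic ribosome, the last positive after quantile, cyclic loess and centring. The genes encoded in mitochondrial DNA, 13 on the list, had no 1-gene probe set here and were not analysed.

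**Figure D5:**
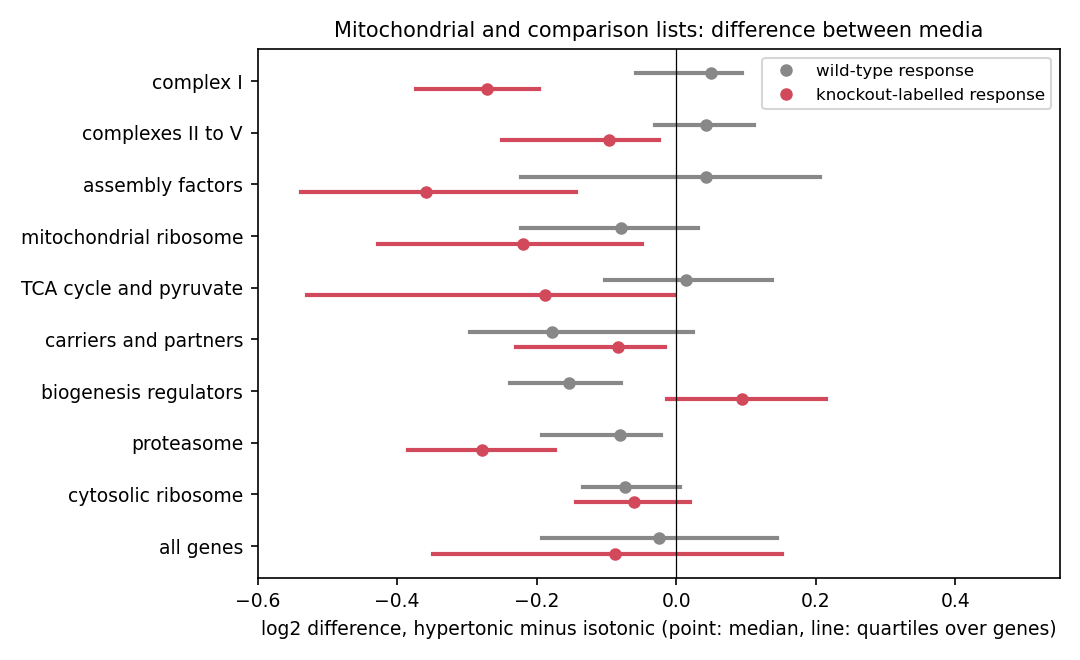
Median (point) and quartiles (line) of the log2 difference between hypertonic and isotonic medium over the genes of each list, in wild-type (grey) and knockout-labelled cells (red). Complex I lies at 0.05 and -0.27, the proteasome at -0.08 and -0.28, and the biogenesis regulators at -0.15 and 0.09.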

How the data were processed

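Values were used as the authors deposited them, and were read as log2 signal because they ran from 1.57 to 13.94. RNA was labelled from a poly(T) primer, per the labels' protocols. Per the submitters' processing notes MAS5 was used, while the sources used here name no background correction or normalization between arrays. Of 35557 probe sets, 21789 had 1 gene symbol in the platform annotation, 1621 had several and 12147 had none, and only the first were used. All 82 members matched a RefSeq gene of the same symbol by Entrez identifier. The members and lists were chosen with earlier results of these data known. A gene was measured where it exceeded the median of the 1-gene probe sets on at least 1 array compared, and counted past 1.5-fold.

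Genes were named mainly by rule: the 4 highest and 4 lowest members and those past 1.5-fold in each comparison. Also named were complex II, isoform partners, disagreeing probe sets, and some extremes of the complexes and of the other lists. S6 kinase and binding protein genes that matched the ribosomal pattern, and Psmc3ip, were left out of the comparison lists after the data were seen. The steps were tested on simulated data. Alternatives were quantile and cyclic loess normalization, centring, no dim limit, averaging of a gene's probe sets, a higher dim limit (75th percentile), isoforms left out, wider membership and a 2-fold limit. Python 3.11.15, pandas 2.3.3, numpy 2.4.6, matplotlib 3.10.9, R 4.3.3 and limma 3.58.1 were used. With 1 array per group the number of arrays limits the precision.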

Additional observations from a re-analysis of the deposited data

Results flagged for a closer look

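Atp5g2 was singled out because its responses had opposite signs in the genotypes and lay at least 2-fold apart, -1.15 for knockout-labelled minus wild-type. The wild-type response was nearly level, 0.03 where the SD per probe set was 0.18, so its sign carries little. The knockout-labelled response was -1.13. The difference between the responses was not tested, since each response rests on 1 array per medium. No other member met both conditions.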

How the results depend on the processing

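The median difference of the subunit genes kept its sign in all 5 comparisons under the 8 alternatives run. It ranged from 0.04 to 0.08 in the wild-type response, -0.23 to -0.14 in the knockout-labelled response, 0.04 to 0.09 and -0.10 to -0.06 in the isotonic and hypertonic genotype differences, and -0.26 to -0.20 in the difference of responses. The 5 genes past 1.5-fold in the knockout-labelled response became 2 after quantile normalization, 2 after cyclic loess and 2 after centring, and 1 at a 2-fold limit. At the 2-fold limit the counts were also 1 in the isotonic genotype difference, 1 in the hypertonic one and 1 in the difference of responses. Wider membership could change nothing, since no matching symbol had been left out, so it is no separate check among the 8. No paired analysis was possible because each group has 1 array, and no array could be left out. Detection calls were not used here, so signals near the dim limit mix background with expression.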

Other observations

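Of 169 genes on the other mitochondrial lists, 2 (1.18%) had a wild-type response of at least 2-fold upward, a share close to the 1.01% of all genes. Pcx, pyruvate carboxylase, which feeds the tricarboxylic acid cycle, read 7.34 and 9.09 in wild-type and 6.77 and 7.42 in knockout-labelled cells, differences of 1.75 and 0.65. Mrps6, a mitochondrial ribosomal protein gene, read 9.74 and 10.83 in wild-type and 9.04 and 9.22 in knockout-labelled cells, differences of 1.09 and 0.18.

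In the RefSeq annotation Mrps6 overlaps Slc5a3, the myo-inositol transporter gene, which read 8.23 and 10.03 in wild-type and 7.42 and 6.44 in knockout-labelled cells. How far the probe sets of these overlapping genes read separate transcripts was not tested. Neither Pcx nor Mrps6 is a subunit gene, and no subunit gene differed by 1.5-fold in the wild-type response.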
